A study of Homo sapiens with 8 samples.

Results

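Kinesins are motor proteins that walk along microtubules with energy from ATP. One set builds and moves the mitotic spindle, aligns and separates chromosomes and closes the bridge between daughter cells, and the levels of many of its members rise towards mitosis in dividing cells. Another set carries vesicles, organelles and protein complexes through the cytoplasm, and several of its members are best known from neurons.

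The kinesin motor genes were the rows whose gene symbol is KIF with a number (and, for some, a letter), or KIFC1 to KIFC3. They were 42 of the 60332 genes in the expression matrix, with 1 row each, of which 14 were put with spindle and cytokinesis kinesins, 17 with transport kinesins and 11 with ciliary and other kinesins. The libraries came from RD-ES and SK-N-MC, established Ewing sarcoma cell lines, a bone and soft tissue tumor driven by a fusion of EWSR1 with an ETS factor. The control cells of each line had received a lentivirus with dCas9-KRAB, a repressor that binds DNA without cutting it, and no guide, and the paper calls them parental. The eKD2 cells had received the same repressor with 1 guide that directs it to the GGAA repeat upstream of LOXHD1, both at a multiplicity of infection of 10, followed by puromycin (1 µg/ml) for 3 days and use within 5 passages. Each of the 4 groups had 2 libraries, and the labels do not say whether these were separate infections, so the p-values measure the spread between these libraries only.

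LOXHD1 itself was listed at 21.4 and 21.2 FPKM in the RD-ES control libraries and at 1.04 and 1.02 FPKM after silencing. In SK-N-MC it was 158.9 and 169.0 FPKM in the control libraries and 11.0 and 11.95 FPKM after silencing, so the libraries matched their labels. FPKM is a fragment number scaled to transcript length and library size, and it can be compared between genes. The total reads were not given, and a rough ratio of low values put the depth of the libraries between 0.578 and 2.31 times that of RD-ES control replicate 1, with RD-ES eKD2 replicate 1 the shallowest. All 10 Ewing sarcoma markers averaged at least 1 FPKM. The 7 fibroblast markers summed to between 65.9 and 87.1 FPKM in the RD-ES libraries and between 441.1 and 454.9 FPKM in SK-N-MC, and their part in the differences between the lines was not tested. Of 5 immune markers, 1 (PTPRC) averaged at least 1 FPKM, as did 1 of 4 epithelial markers (EPCAM) and 0 of 2 endothelial markers. The immune markers summed to between 0.581 and 1.62 FPKM in the RD-ES libraries and between 20.1 and 22.9 FPKM in SK-N-MC. The epithelial sum was 0.449 and 0.722 FPKM in RD-ES control against 4.47 and 0.401 FPKM in RD-ES eKD2. In SK-N-MC it was between 3.68 and 4.93 FPKM.

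Many genes of cell division carry a short element named CHR, often with a CCAAT box upstream of it, through which they are held down outside the late cell cycle. RefSeq promoters (GRCh38.p14, 250 bases before and 50 after each start) were found for 34 of the 42 kinesin genes. Either CHR form (TTTGAA or TTCGAA, both strands) stood in a promoter of 11 of 14 spindle and cytokinesis kinesins (78.6%), 1 of 12 transport kinesins (8.33%) and 1 of 8 other kinesins (12.5%), against 19.5% of all 27305 genes. CCAAT, read on both strands, was held by 11 of 14, 4 of 12 and 3 of 8 genes of these sets, against 39.7% of all genes. A CHR form and CCAAT shared 1 promoter in 10 of the 14 spindle and cytokinesis kinesins (71.4%) and in 7.85% of all genes. GGAAGGAA, a short GGAA repeat, was in no kinesin promoter of this window and in 4.5% of all genes. These matches describe the letters and show no binding.

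The stretches below end at the base before the annotated start and are written along the strand of the gene, with CHR forms and CCAAT, or their complements, in capitals. The first 6 are spindle kinesins whose CHR form lies upstream of the start, and KIF20A, KIF3A and KIF13A follow because they had an unadjusted p under 0.05 for eKD2 in RD-ES.
KIF11 (chr10:92593010-92593129, plus strand): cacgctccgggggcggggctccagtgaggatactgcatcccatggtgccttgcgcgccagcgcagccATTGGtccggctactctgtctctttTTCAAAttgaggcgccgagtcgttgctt
KIF15 (chr3:44761674-44761793, plus strand): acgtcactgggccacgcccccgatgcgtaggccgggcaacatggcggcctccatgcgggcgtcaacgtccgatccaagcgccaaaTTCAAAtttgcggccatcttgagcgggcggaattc
KIF18A (chr11:28108157-28108276, minus strand): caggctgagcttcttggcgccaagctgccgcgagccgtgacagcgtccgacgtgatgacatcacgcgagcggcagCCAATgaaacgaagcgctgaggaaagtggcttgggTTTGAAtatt
KIF22 (chr16:29790631-29790750, plus strand): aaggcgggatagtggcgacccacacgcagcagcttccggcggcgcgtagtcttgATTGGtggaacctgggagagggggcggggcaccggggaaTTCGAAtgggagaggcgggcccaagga
KIF23 (chr15:69414229-69414348, plus strand): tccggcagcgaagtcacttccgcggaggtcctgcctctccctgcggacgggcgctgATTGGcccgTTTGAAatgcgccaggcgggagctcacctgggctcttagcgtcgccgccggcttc
KIF4A (chrX:70289984-70290103, plus strand): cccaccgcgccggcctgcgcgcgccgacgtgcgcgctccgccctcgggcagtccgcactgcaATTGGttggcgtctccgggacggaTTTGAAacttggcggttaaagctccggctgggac
KIF20A (chr5:138178992-138179111, plus strand): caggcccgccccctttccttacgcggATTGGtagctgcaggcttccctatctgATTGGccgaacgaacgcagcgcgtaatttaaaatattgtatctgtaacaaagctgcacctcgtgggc
KIF3A (chr5:132737547-132737666, minus strand): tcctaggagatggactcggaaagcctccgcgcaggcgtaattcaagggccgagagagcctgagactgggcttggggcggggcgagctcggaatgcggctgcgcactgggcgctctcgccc
KIF13A (chr6:17987636-17987755, minus strand): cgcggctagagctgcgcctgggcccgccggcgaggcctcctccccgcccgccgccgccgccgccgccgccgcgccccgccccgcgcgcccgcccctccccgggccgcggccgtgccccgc
The first base of the CHR form lay at -28 in KIF11, -35 in KIF15, -10 in KIF18A, -27 in KIF22, -55 in KIF23 and -34 in KIF4A, counted from the start. The CCAAT box lay further upstream in each of these promoters other than KIF15, which held none. KIF20A held 2 CCAAT boxes and neither CHR form, and KIF3A and KIF13A held none of these letters.

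Most motors of division were expressed well above the filter. Of the 42 genes, 37 averaged at least 1 FPKM over the 8 libraries and were tested, namely 12 spindle and cytokinesis kinesins, 16 transport kinesins and 9 others. KIF2B, a spindle motor, was listed at 0 in every library. KIF4B, a near-identical intronless copy of KIF4A whose reads cannot be cleanly assigned, KIF5C, KIF19 and KIF26B stayed under 1 FPKM on average and were not tested. Among the spindle motors, KIF2C, which takes microtubules apart at kinetochores, averaged 91.4 FPKM, KIF22, which pushes chromosome arms, averaged 75.6 FPKM, and KIF20A, needed for cytokinesis, averaged 71.3 FPKM. KIF20B was the lowest tested spindle motor at 11.1 FPKM. Among the transport motors KIF5B, the widely expressed heavy chain of conventional kinesin, averaged 74.2 FPKM, and KIFC3, a motor that walks towards the minus end, averaged 34.3 FPKM. KIF1A, a carrier of synaptic vesicle precursors, was the highest transport motor in RD-ES control at a mean of 97.7 FPKM but only 1.84 FPKM in SK-N-MC control, where KIF5B (70.8 FPKM) and KIFC2 (51.1 FPKM) led. Of the remaining genes KIF2A, a microtubule depolymerase, was highest at 115.5 FPKM, far above KIF7, a ciliary regulator of Hedgehog signaling, at 11.0 FPKM and KIF9, a motor of motile cilia, at 5.42 FPKM. The KIF2A gene shares 18.7% of its exonic bases with DIMT1 on the other strand and KIF7 shares 10.8% with TICRR, and the library kit kept no strand, so reads within the shared bases cannot be told apart. Smaller parts are shared in this way by KIF9 (3.03% with KLHL18), KIF24 (2.22% with UBAP1) and KIF4A (1.68% with PDZD11).

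**Figure D1:**
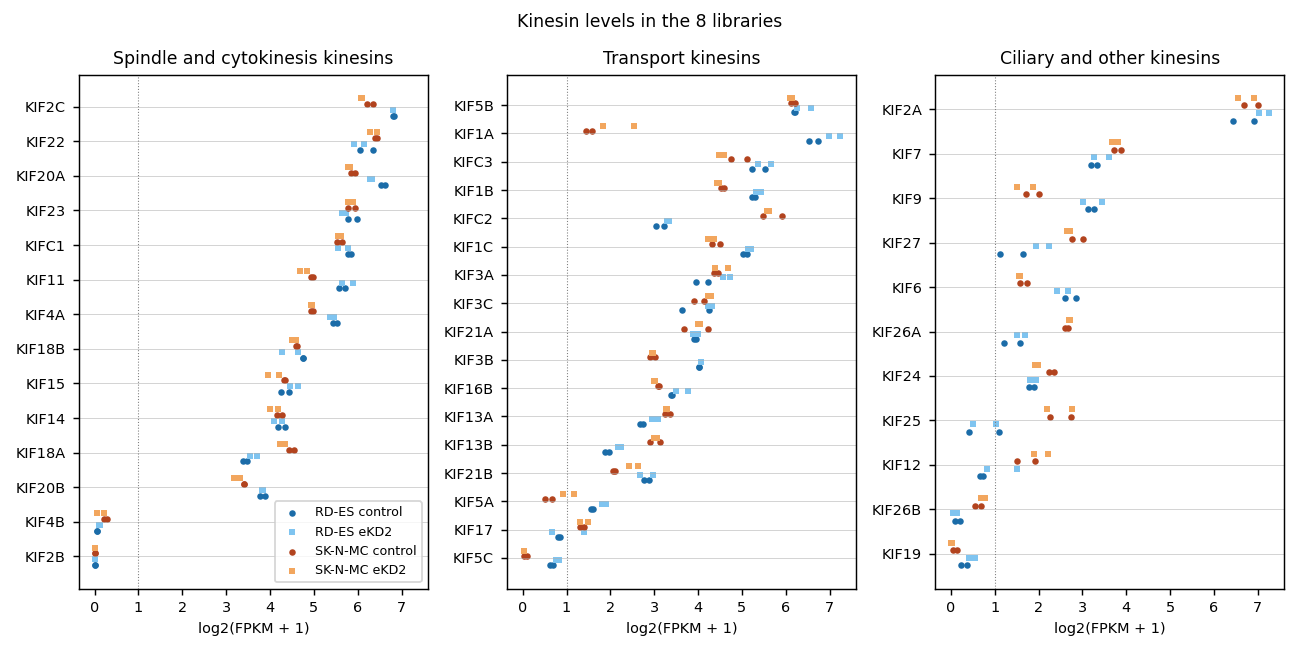
Level of each kinesin as log2(FPKM + 1) in the 8 libraries, by role and ordered by mean level, with the dotted line at 1 FPKM. KIF1A in the transport panel is split between the lines, and the 12 tested spindle motors all lie well to the right of the dotted line.

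The control cells were compared to ask how the lines differ in their motors. KIF1A stood apart. It was 90.8 and 104.7 FPKM in RD-ES control and 1.71 and 1.98 FPKM in SK-N-MC control, a mean 53.0 times higher in RD-ES. The log2 difference, SK-N-MC minus RD-ES, was -5.12 ± 0.24 (SE; limma, adjusted p = 2.6e-05). KIF5A, the neuronal heavy chain of conventional kinesin, was 2.04 and 1.93 FPKM in RD-ES and 0.587 and 0.415 FPKM in SK-N-MC, a log2 difference of -0.99 ± 0.18 (SE; limma, adjusted p = 0.0040). KIF5C, another neuronal heavy chain, was 0.531 and 0.618 FPKM in RD-ES against 0.0214 and 0.0720 FPKM in SK-N-MC and was under the filter. Without the filter KIF5C passed as lower in SK-N-MC, with a limma adjusted p of 0.0016, and KIF26B as higher, with 0.0085. The remaining transport motors that passed as lower in SK-N-MC were KIF3B, KIF21B, KIF1B and KIF1C. KIF21B was 5.76 and 6.35 FPKM in RD-ES and 3.29 and 3.15 FPKM in SK-N-MC, a log2 difference of -0.74 ± 0.14. KIF1B was 38.5 and 36.6 FPKM against 22.0 and 23.2 FPKM (-0.71 ± 0.08), and KIF1C, a carrier of vesicles, was 33.8 and 31.7 FPKM against 18.9 and 21.7 FPKM (-0.67 ± 0.09). The other heavy chain, KIF5B, was 72.2 and 73.3 FPKM against 73.0 and 68.6 FPKM, and its log2 difference of -0.04 ± 0.11 did not pass.

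Motors that were higher in SK-N-MC were led by KIFC2, a neuronal minus-end motor, with 8.40 and 7.24 FPKM in RD-ES and 43.3 and 58.8 FPKM in SK-N-MC (log2 difference 2.55 ± 0.15, limma adjusted p = 5.9e-05). KIF13B, which carries membrane cargo, was 2.93 and 2.69 FPKM in RD-ES and 6.50 and 7.70 FPKM in SK-N-MC (log2 difference 1.08 ± 0.12, limma adjusted p = 0.00053). Both genes lie on chromosome 8, where the median log2 difference of the 573 genes tested was 0.78 and 67.5% passed as higher in SK-N-MC. Over the 16 chromosomes with a tested kinesin this median ranged from -0.46 on chromosome 10, which holds KIF11, KIF20B and KIF5B and where 49.6% of genes passed as lower, to 0.78. On chromosome 14, which holds KIF26A, it was 0.59 and 54.7% passed as higher. The part of the chromosome in these values was not tested. KIF13A, which moves recycling endosomes, was 5.34 and 5.68 FPKM against 9.19 and 8.44 FPKM, a log2 difference of 0.59 ± 0.10.

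KIF3A, KIF3B and KIFAP3 form the heterotrimeric motor that builds cilia. KIF3B was 15.2 and 15.3 FPKM in RD-ES and 7.12 and 6.50 FPKM in SK-N-MC (log2 difference -1.06 ± 0.08, limma adjusted p = 0.00014). Its partner KIF3A was 17.7 and 14.5 FPKM against 19.6 and 20.9 FPKM, a log2 difference of 0.32 ± 0.14 that did not pass (limma adjusted p = 0.10). KIFAP3, the subunit that binds both, had a log2 difference of -0.10. The groups overlapped for KIFAP3 and not for KIF3A or KIF3B.

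Of the spindle motors, KIF18A, which damps chromosome movements at the metaphase plate, was the only one of the 12 that passed as higher in SK-N-MC, with 10.1 and 9.49 FPKM in RD-ES against 22.5 and 20.5 FPKM (log2 difference 1.06 ± 0.10, limma adjusted p = 0.00030). Those that passed as lower in SK-N-MC were KIF20A, KIF11, KIF2C, KIF4A and KIF20B. The counts were thus 1 higher and 5 lower of 12, beside 31.4% and 26.4% of all genes. KIF20A was 98.0 and 91.0 FPKM in RD-ES and 56.7 and 59.9 FPKM in SK-N-MC (log2 difference -0.69 ± 0.07, limma adjusted p = 0.00039). KIF11, which slides spindle poles apart, was 51.2 and 46.8 FPKM against 30.6 and 29.6 FPKM, a log2 difference of -0.69 ± 0.11. KIF23, the motor of the central spindle, did not pass, with 54.3 and 62.0 FPKM in RD-ES and 60.0 and 53.5 FPKM in SK-N-MC. Its partner RACGAP1 did pass as lower in SK-N-MC, with a log2 difference of -0.44. KIFC1, which focuses spindle poles, was 54.0 and 56.6 FPKM against 45.4 and 49.0 FPKM and did not pass (limma adjusted p = 0.092), though it passed after median scaling (0.013).

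Among the ciliary and other kinesins 8 of 9 passed. KIF27 had 2.13 and 1.19 FPKM in RD-ES and 5.77 and 7.14 FPKM in SK-N-MC, a log2 difference of 1.502 ± 0.21. KIF26A, which has lost the motor activity, had 1.30 and 2.01 FPKM against 5.11 and 5.37 FPKM (1.24 ± 0.16). KIF25 had 0.329 and 1.14 FPKM against 5.72 and 3.82 FPKM (1.76 ± 0.35), and KIF12 had 0.598 and 0.674 FPKM against 2.76 and 1.87 FPKM (1.01 ± 0.28). In all of these both SK-N-MC libraries were the higher ones. KIF9 had 7.78 and 8.67 FPKM against 2.28 and 3.06 FPKM (-1.34 ± 0.21), and KIF6, also linked to motile cilia, had 6.20 and 5.03 FPKM against 1.96 and 2.34 FPKM (-1.07 ± 0.16). KIF7 and KIF24 passed by a small margin, with limma adjusted p of 0.021 for each, and KIF12 with 0.022. The call was lost for KIF7 without any 1 of the 4 control libraries (log2 difference between 0.44 and 0.62). For KIF12 it was lost without RD-ES control replicate 1 (log2 difference 0.97), RD-ES control replicate 2 (1.04) or SK-N-MC control replicate 1 (0.81). KIF24 lost it without RD-ES control replicate 1 (log2 difference 0.41) or SK-N-MC control replicate 1 (0.40). The KIF24 call was also lost with no filter (limma adjusted p = 0.052), after median scaling (0.053) and after quantile normalization (0.073). KIFC3 passed as lower in SK-N-MC after median scaling (limma adjusted p = 0.026) and after quantile normalization (0.044). It also did so without SK-N-MC control replicate 2 (log2 difference -0.64). KIF17 passed as higher when only the control groups were fitted (limma adjusted p = 0.011). KIF2A did not pass. In all, 23 of 37 kinesins passed, 10 higher and 13 lower in SK-N-MC. Of all genes tested 57.8% passed, 31.4% higher and 26.4% lower, so the share of kinesins was near that of genes at large.

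**Figure D2:**
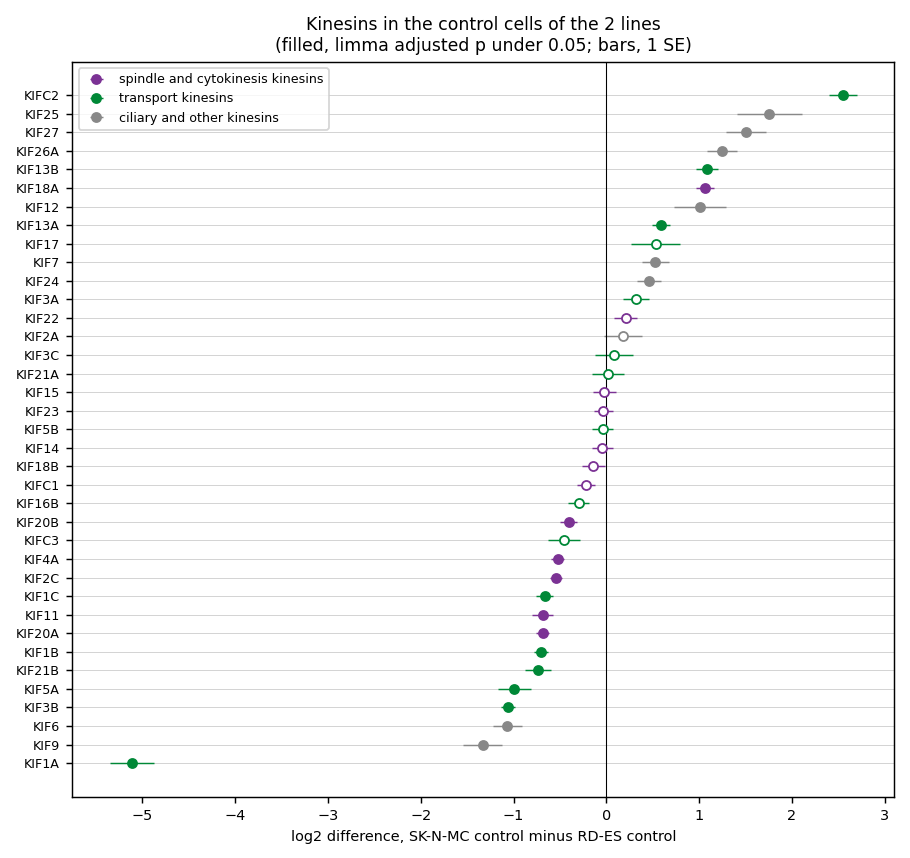
Log2 difference in level between SK-N-MC control and RD-ES control for the 37 kinesins tested, with 1 SE, colored by role and filled where the limma adjusted p was under 0.05. KIF1A lies at -5.12 and KIFC2 at 2.55, while 5 of the 6 filled spindle motors lie left of 0.

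The eKD2 cells were compared with control in each line to ask whether silencing of the LOXHD1 enhancer changed the motors. No kinesin passed the adjusted threshold in RD-ES or in SK-N-MC, where 0.343% and 0.323% of all genes passed by limma. At an unadjusted p under 0.05 in limma, without that correction, 4 of 37 kinesins were counted in the RD-ES comparison and 5 of 37 in that of SK-N-MC. Of all genes tested 8.49% were higher and 3.79% lower at this p in RD-ES, and 5.71% and 7.29% in SK-N-MC.

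In RD-ES the spindle and cytokinesis kinesins had a median log2 change of -0.07 and 8 of 12 were lower in eKD2. The median of all genes tested was 0.03, and 56.2% of them were above 0. The 8 became 9 after median scaling or quantile normalization, and between 7 and 9 when each library was left out. Without RD-ES control replicate 1 the median was -0.012. KIF20A was 98.0 and 91.0 FPKM in control against 76.8 and 78.7 FPKM in eKD2, with no overlap (log2 change -0.28 ± 0.07, limma adjusted p = 0.23). Its exons share 132 bases with BRD8 and 74 with CDC23 on the other strand. KIF18B, which keeps astral microtubules short, was 25.8 and 25.8 FPKM in control against 18.4 and 24.0 FPKM in eKD2 (log2 change -0.28 ± 0.13). Its log2 change was -0.10 without RD-ES eKD2 replicate 1, the shallowest library, and -0.46 without RD-ES eKD2 replicate 2. KIF23 was 54.3 and 62.0 FPKM against 49.1 and 52.5 FPKM. In contrast KIF15, which backs up KIF11 on the spindle, was 20.7 and 18.1 FPKM against 24.1 and 21.0 FPKM, and KIF18A was 10.1 and 9.49 FPKM against 11.96 and 10.6 FPKM, both without overlap. KIF11 was 51.2 and 46.8 FPKM against 58.2 and 48.8 FPKM and overlapped. The summed level of the 14 genes was 571.4 and 572.8 FPKM in control against 528.3 and 539.6 FPKM in eKD2. With KIF2A, which also acts at spindle poles and was counted with the other kinesins, the sum was 656.6 and 691.3 FPKM against 678.7 and 668.7 FPKM and the groups overlapped. In bulk RNA fewer cells in mitosis and less RNA per cell cannot be told apart.

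The median of the transport kinesins had the opposite sign in RD-ES. All 16 tested had a log2 change above 0, with a median of 0.21 beside 0.03 for all genes tested, of which 56.2% were above 0. The 16 fell to 13 after median scaling or quantile normalization, and to between 12 and 16 when each library was left out in turn, with the lowest count without RD-ES eKD2 replicate 2. KIF3A was 17.7 and 14.5 FPKM in control against 25.4 and 22.7 FPKM in eKD2 (log2 change 0.55 ± 0.14, limma adjusted p = 0.24). KIF13A was 5.34 and 5.68 FPKM against 6.66 and 7.53 FPKM (log2 change 0.31 ± 0.10, limma adjusted p = 0.30). Both stood clear of the control libraries. KIF1A was 90.8 and 104.7 FPKM against 125.8 and 148.7 FPKM (log2 change 0.48 ± 0.24). KIF5B was 72.2 and 73.3 FPKM against 94.5 and 74.9 FPKM, where the higher value is from the shallowest library. The summed transport level was 374.4 and 379.2 FPKM in control against 451.1 and 462.6 FPKM in eKD2, and without KIF1A 283.6 and 274.6 FPKM against 325.3 and 313.9 FPKM, so the groups did not overlap with or without it.

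Of the ciliary and other kinesins in RD-ES, KIF27, a ciliary motor, was 2.13 and 1.19 FPKM in control against 3.73 and 2.85 FPKM in eKD2 (log2 change 0.70 ± 0.21, limma adjusted p = 0.29). KIF2A was 85.2 and 118.5 FPKM against 150.4 and 129.1 FPKM. The counts at an unadjusted p under 0.05 were 3 higher (KIF27, KIF3A and KIF13A) and 1 lower (KIF20A) of 37, where 8.49% of all genes were higher and 3.79% lower. The groups did not overlap, with eKD2 higher, for 11 of 16 transport, 2 of 12 spindle and 3 of 9 other kinesins, beside 24.2% of all genes. They did so with eKD2 lower for 4 of 12 spindle kinesins and 0 of the others, beside 15.1% of all genes.

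In SK-N-MC all 12 tested spindle and cytokinesis kinesins had a log2 change below 0. The median was -0.11, beside a median near 0 for all genes, of which 47.6% were above 0. The 12 fell to 10 after median scaling, to 9 after quantile normalization and to between 9 and 11 when each library was left out, with the lowest count without SK-N-MC eKD2 replicate 1. KIF2C was 72.8 and 80.2 FPKM in control against 66.8 and 67.2 FPKM in eKD2 (log2 change -0.19 ± 0.07, limma adjusted p = 0.33). KIF15 was 19.3 and 18.9 FPKM against 17.4 and 14.5 FPKM, KIF18A was 22.5 and 20.5 FPKM against 19.3 and 17.8 FPKM, and KIF11 was 30.6 and 29.6 FPKM against 27.8 and 24.7 FPKM, each without overlap. KIF23, KIFC1 and KIF4A lay within 0.02 of 0 on the log2 scale. The summed level was 474.2 and 474.3 FPKM in control against 441.5 and 445.8 FPKM in eKD2, and with KIF2A 576.0 and 601.2 FPKM against 560.5 and 538.7 FPKM.

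The transport kinesins were evenly split in SK-N-MC, 8 higher and 8 lower, with a median of 0.0053 that turned to -0.016 without SK-N-MC eKD2 replicate 1, to -0.0085 without SK-N-MC eKD2 replicate 2 and to -0.0056 without SK-N-MC control replicate 2, and was 0.044 without SK-N-MC control replicate 1. Those with the highest log2 changes were KIF1A, KIF5A and KIF21B, known from neurons. KIF1A was 1.71 and 1.98 FPKM in control against 2.54 and 4.81 FPKM in eKD2 (log2 change 0.67 ± 0.24, limma adjusted p = 0.33), and the log2 change lay between 0.32 and 1.03 with each library left out. KIF5A was 0.587 and 0.415 FPKM against 1.27 and 0.885 FPKM (0.46 ± 0.18), and its exons share 71 bases with DCTN2, which averaged 144.7 FPKM on the other strand. KIF21B was 3.29 and 3.15 FPKM against 4.35 and 5.14 FPKM (log2 change 0.44 ± 0.14, limma adjusted p = 0.29). KIFC3 had the lowest log2 change, -0.39 ± 0.17, with 25.7 and 33.4 FPKM in control against 21.3 and 23.0 FPKM in eKD2. Among the other kinesins KIF24, which restrains the assembly of cilia, was 4.13 and 3.72 FPKM against 2.79 and 2.99 FPKM (-0.34 ± 0.12, limma adjusted p = 0.34). Its exons share 144 bases with UBAP1, which averaged 25.9 FPKM on the other strand. The counts at an unadjusted p under 0.05 were 3 higher and 2 lower (KIF24 and KIF2C) of 37, beside 5.71% and 7.29% of all genes. The groups did not overlap with eKD2 higher for 0 spindle, 4 transport and 1 other kinesins, beside 22.2% of all genes, and with eKD2 lower for 6, 3 and 2, beside 25.1%.

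**Figure D3:**
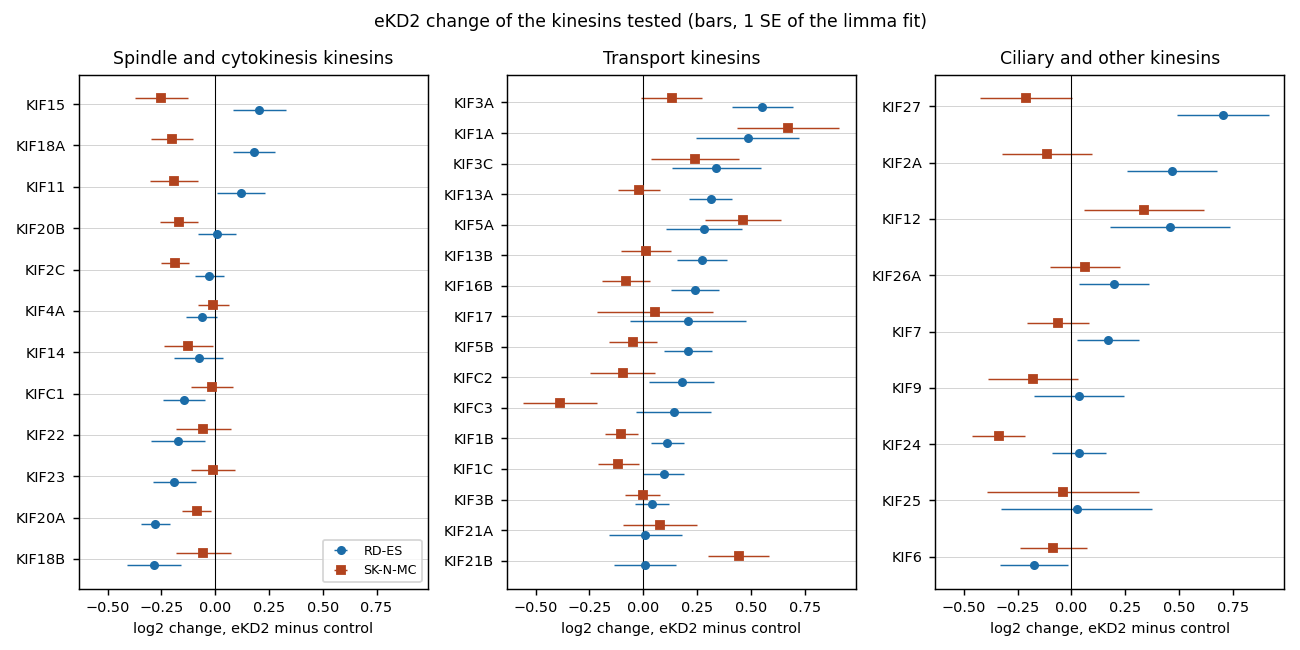
Log2 change of each tested kinesin in eKD2 against control, with 1 SE of the limma fit, for RD-ES (circles) and SK-N-MC (squares). The RD-ES circles of all 16 transport motors lie above 0 and the SK-N-MC squares of all 12 spindle motors lie below 0, though after median scaling 13 and 10 do.

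**Figure D4:**
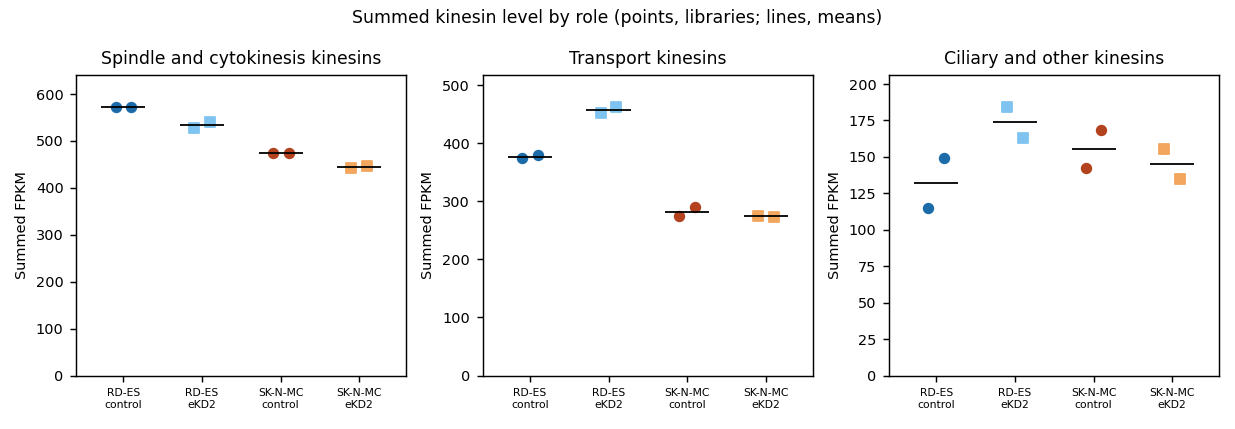
Summed FPKM of the kinesins of each role in the 8 libraries, with lines at the group means. The spindle sum, which leaves out KIF2A, is lower in both eKD2 libraries of each line (with KIF2A the RD-ES groups overlap), and the transport sum is higher in both RD-ES eKD2 libraries.

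The difference between the lines in the eKD2 change was tested directly. No kinesin passed (0.244% of all genes did, by limma). At an unadjusted p under 0.05 the counts were 0 higher and 3 lower in SK-N-MC than in RD-ES, beside 4.38% and 9.16% of all genes. The 3 were KIF27 (-0.91 ± 0.30), KIF15 (-0.45 ± 0.17) and KIF18A (-0.38 ± 0.14), with limma adjusted p of 0.29, 0.34 and 0.32. Together with KIF16B and KIF1B, carriers of endosomes and vesicles, they were the 5 of 37 kinesins that were higher in both RD-ES eKD2 libraries and lower in both SK-N-MC eKD2 libraries than in any control library of the line, a pattern held by 6.69% of all genes. With an unadjusted p under 0.05 for the difference as well, 3 of 37 and 5.01% of all genes remained.

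**Figure D5:**
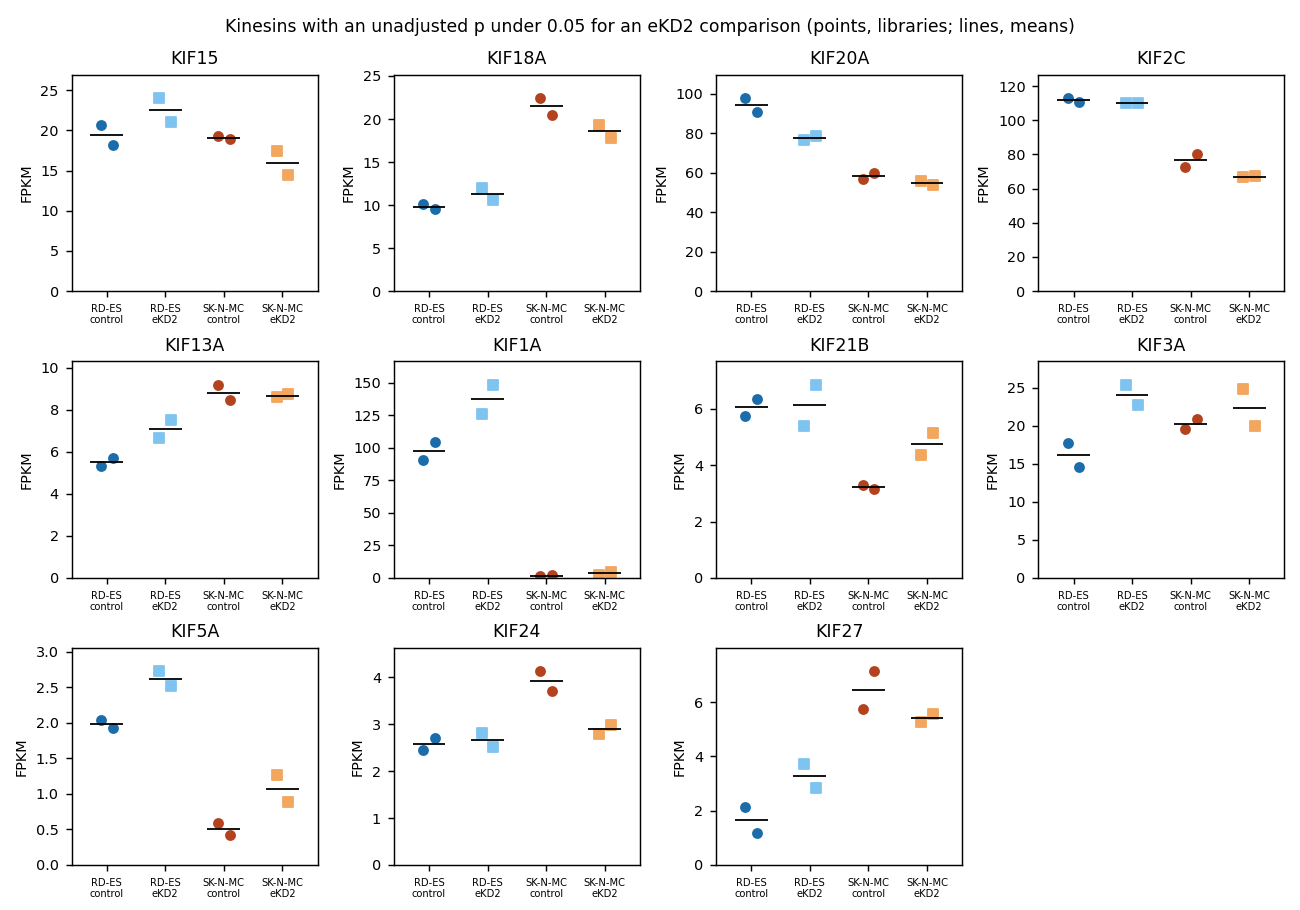
FPKM in each library of the 11 kinesins with an unadjusted p under 0.05 for an eKD2 comparison or for the difference between lines, with lines at the group means and axes from 0. KIF20A is lower in both RD-ES eKD2 libraries, and KIF15, KIF18A and KIF27 are higher in RD-ES eKD2 and lower in SK-N-MC eKD2.

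The partners of the motors were counted for comparison. Of 30 spindle partners, 0 passed for eKD2 in either line by limma, with 17 higher and 13 lower in RD-ES and 9 higher and 21 lower in SK-N-MC. At an unadjusted p under 0.05 the counts were 2 higher and 4 lower of 30 for RD-ES, beside 8.49% and 3.79% of all genes, and 1 higher and 6 lower for SK-N-MC, beside 5.71% and 7.29%. The same shares of all genes stand beside the counts of the lists that follow. TPX2, which activates Aurora A and binds KIF11, had the smallest adjusted p of the list in SK-N-MC (limma, 0.076) with 112.3 and 117.2 FPKM in control against 84.2 and 82.5 FPKM in eKD2. RACGAP1 was 108.6 and 118.4 FPKM against 85.4 and 91.8 FPKM there, while KIF23, with which it forms 1 complex, was 60.0 and 53.5 FPKM against 53.9 and 58.6 FPKM. PRC1, the partner of KIF4A at the midzone, was 276.1 and 314.5 FPKM against 319.1 and 307.5 FPKM. The partners named here were chosen for their binding to a kinesin after their values were seen.

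Of 17 cell cycle regulators and markers, 0 passed for eKD2 by limma, 12 were lower in each line, and at an unadjusted p under 0.05 the counts were 1 higher and 2 lower for RD-ES and 0 higher and 2 lower for SK-N-MC, of 17. Their summed level was 1312 and 1311 FPKM in RD-ES control against 1231 and 1226 FPKM in eKD2. In SK-N-MC it was 1200 and 1159 FPKM against 1144 and 1095 FPKM. It was thus lower in both eKD2 libraries of each line, as was the spindle kinesin sum, and its part in that sum was not tested. The summed level of the 30 spindle partners was 3080 and 2942 FPKM in RD-ES control against 3031 and 2848 FPKM in eKD2. These groups overlapped. In SK-N-MC the spindle partner sum was 2878 and 2981 FPKM against 2861 and 2792 FPKM, without overlap. Of 16 transport kinesin partners tested, 0 passed by limma, with 9 higher in RD-ES eKD2 and 8 in that of SK-N-MC. At an unadjusted p under 0.05, 3 were higher and 0 lower for RD-ES, and 0 either way for SK-N-MC. In RD-ES the highest log2 change among them was 0.57 for SPAG9, a cargo adaptor of conventional kinesin. Of 23 dynein and dynactin genes, 0 passed by limma. At an unadjusted p under 0.05, 1 was higher and 2 lower for RD-ES, and 4 higher and 2 lower for SK-N-MC. Of the 23, 9 had a log2 change above 0 in RD-ES and 15 in that of SK-N-MC.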

How the data were processed

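RNA was sequenced from 8 libraries, 2 in each of 4 groups named by the sample labels. The authors aligned single-end reads to GRCh37 (hg19) with STAR and deposited FPKM values per gene, made with cufflinks and cuffnorm. The library kit selected polyadenylated RNA and kept no strand. Here log2(FPKM + 1) was, for the 15175 genes averaging 1 FPKM or more, fitted with limma 3.58.1 (R 4.3.3, trend) over the 4 groups, with Benjamini-Hochberg adjustment over all genes tested and a threshold of 0.05. Changes on this scale understate those of low genes. Shared exonic bases came from GENCODE 44 mapped to GRCh37. The code was tested on simulated data. The kinesins, the lists of roles and partners and the rule for named genes (those past the adjusted threshold, up to the 12 with the largest difference between lines, those with an unadjusted p under 0.05 for eKD2, the 3 highest per role by mean level and 6 chosen for their role) were chosen with earlier results of these data known. Alternatives were another pseudocount (0.1), no filter, other scalings, no trend, separate fits, a replicate block and leaving out each library. Medians without members sharing bases with an expressed gene of the other strand, and sums without KIF1A or with KIF2A, were added after seeing the data, and KIF1B, KIF1C, KIF4A, KIF16B, KIF17, KIF18B and KIF20B were named outside that rule. Depth is unknown beyond the ratio of low values. With 2 libraries against 2, an exact permutation test of a single value cannot give a two-sided p under 0.333, so none is given.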

Additional observations from a re-analysis of the deposited data

Results flagged for a closer look

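For 5 of 37 kinesins both eKD2 libraries were above both control libraries in RD-ES and below both in SK-N-MC. This pattern was held by 6.69% of all genes tested. The limma test of the difference had an unadjusted p under 0.05 for 3 of the 5 (KIF27, KIF15 and KIF18A), and not for KIF16B or KIF1B. Of all genes tested 5.01% held this pattern with such a p. No kinesin passed the adjusted threshold in limma. The difference in the log2 change, SK-N-MC minus RD-ES, was -0.91 for KIF27, -0.45 for KIF15 and -0.38 for KIF18A. Over each library left out it ranged from -1.17 to -0.65 for KIF27, from -0.58 to -0.33 for KIF15 and from -0.46 to -0.30 for KIF18A. The unadjusted p depended on the processing. Kinesins with a lower change in SK-N-MC at an unadjusted p under 0.05 in limma numbered 1 after median scaling and 1 after quantile normalization. They numbered 3 with a pseudocount of 0.1, 4 with no filter, 4 with the replicate block and 5 with no trend. With 2 libraries in a group, no single library could be tested as standing apart.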

How the results depend on the processing

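No kinesin passed for eKD2 or for the difference between lines under any alternative run. In the line comparison the 37 kinesins lost a call 12 times over the alternatives (KIF7, KIF12 and KIF24) and gained one 7 times (KIF16B, KIF17, KIFC1 and KIFC3). The median eKD2 change of spindle kinesins in RD-ES was -0.14 after median scaling and between -0.072 and -0.012 with a library left out, and that of transport kinesins was 0.24 with a pseudocount of 0.1, 0.16 after median scaling, 0.18 after quantile normalization and between 0.20 and 0.24 with a library left out. In SK-N-MC the spindle median was -0.15 without members that share bases with an expressed gene of the other strand and between -0.14 and -0.10 with a library left out, and the transport median was 0.015 after median scaling, -0.0100 after quantile normalization and between -0.016 and 0.044 with a library left out. Median scaling moved the median of all genes in the line comparison from 0.06 to -0.04. The replicate block left 11, 5 and 7 genes of all tested past the threshold in RD-ES, SK-N-MC and the difference, against 52, 49 and 37 without it, separate fits left 1 and 13, and no filter gave 79, 118 and 66, and leaving out each library gave 57 to 71, 48 to 76 and 54 to 81. Same-numbered libraries deviated together with r = 0.056 and 0.027 across genes, so the numbers were not taken as pairs. The cause of these moves was not tested. Depth differs between libraries and limits the members near 1 FPKM.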
